A study of Mus musculus with 12 samples.

Results

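The muscle isoforms of energy metabolism described here are 10 genes, Ckm, Ckb, Ckmt2, Ampd1, Pgam2, Eno3, Pygm, Cox6a2, Cox7a1 and Cox8b. They were taken by name: every array probe whose listed target was CKM, CKB, CKMT2, AMPD1, PGAM2, ENO3, PYGM, COX6A2, COX7A1 or COX8B, in any case, was used. This gave 10 of 30854 listed targets and 12 of 45281 probes, 2 each for Ckmt2 and Ampd1 and 1 for each other gene. Their signals come from 12 Illumina bead arrays that cover the mouse genes, run on the established mouse line C2C12, whose myoblasts fuse into myotubes once serum is withdrawn. Cells received 10 uM embelin, a benzoquinone from plants named in the series title as a PCAF inhibitor (PCAF is an acetyltransferase), or the solvent DMSO. Each treatment was given in growth medium with 20% fetal bovine serum, for 24 h in differentiation medium with 2% horse serum, or for 48 h in differentiation medium. The 6 groups held 2 arrays each, and all came from the same cell line with no genetic change named in the labels. For the cells in growth medium, the labels give 0 h in one field and 24 h of treatment in another. Nothing in the labels says whether replicates were separate cultures. The p-values therefore reflect the spread between these samples alone, and it may be technical.

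Muscle keeps its ATP level through short-range reserves. Creatine kinases pass phosphate between ATP and creatine phosphate, AMP deaminase drains AMP so that adenylate kinase can keep running, and glycogen phosphorylase feeds glycolysis. For many of these steps, and for some subunits of cytochrome c oxidase, mammals hold a separate isoform used in striated muscle beside one used in most tissues. Ckb is the brain-type creatine kinase and in that sense not a muscle isoform. It is known to be expressed in early myotubes, and it was included because it was on the list.

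Promoter windows from a RefSeq-based table (build GRCm38.p6, 250 bases before to 50 after each start) matched 8 of the 10 genes. Ampd1 and Cox6a2 had no entry there. The 250 bases before the start are shown for 4 genes whose levels moved far apart between DMSO groups, 3 of them known as muscle isoforms and Ckb as the brain type. Capitals mark each CANNTG (the E-box letters that myogenic basic helix-loop-helix factors such as MyoD are known to bind), on either strand. They also mark each CTANNNNTAG, a MEF2-like form whose middle bases may be any. Other forms of the MEF2 motif were not searched or marked. The windows are chr7:19410844-19411093 on the plus strand for Ckm, and, on the minus strand, chr12:111672339-111672588 for Ckb, chr11:5803797-5804046 for Pgam2 and chr7:140900447-140900696 for Cox8b.
Ckm: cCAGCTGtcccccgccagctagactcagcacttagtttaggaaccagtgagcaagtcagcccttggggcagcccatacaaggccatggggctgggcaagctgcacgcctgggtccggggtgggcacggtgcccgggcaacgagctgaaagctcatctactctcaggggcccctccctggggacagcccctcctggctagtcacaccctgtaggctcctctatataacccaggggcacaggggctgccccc
Ckb: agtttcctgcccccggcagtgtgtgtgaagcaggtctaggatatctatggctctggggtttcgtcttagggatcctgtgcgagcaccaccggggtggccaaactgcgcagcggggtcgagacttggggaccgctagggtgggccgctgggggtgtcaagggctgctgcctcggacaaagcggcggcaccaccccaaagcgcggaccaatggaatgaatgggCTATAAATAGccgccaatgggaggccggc
Pgam2: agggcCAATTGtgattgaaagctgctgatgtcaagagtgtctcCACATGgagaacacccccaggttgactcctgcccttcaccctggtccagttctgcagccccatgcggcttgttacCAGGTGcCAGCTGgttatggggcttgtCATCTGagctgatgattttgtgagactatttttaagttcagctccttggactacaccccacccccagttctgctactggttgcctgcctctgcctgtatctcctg
Cox8b: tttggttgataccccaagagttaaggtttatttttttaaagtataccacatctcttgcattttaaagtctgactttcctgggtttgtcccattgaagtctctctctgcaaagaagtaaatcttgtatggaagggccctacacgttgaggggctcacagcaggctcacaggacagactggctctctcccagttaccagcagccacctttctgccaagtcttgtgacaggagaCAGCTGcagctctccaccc
The Ckm window holds 1 E-box, with the letters CAGCTG and its first base at -249 from the start. The Ckb window holds no E-box, and its capitals are the CTATAAATAG at -29. These letters also contain TATAAA, so the match is not particular to MEF2. Of the 5 E-boxes in the Pgam2 window, those starting at -132 and -125 lie next to each other, and the second is a CAGCTG. Cox8b has a CAGCTG at -19 and another at 17, past the bases shown. Over the whole windows of 300 bases, the E-box letters occurred in 7 of the 8 genes, against 72.3% of 32851 promoters. Its subset CAGCTG occurred in 6 of 8, in Ckm, Ckmt2, Pgam2, Eno3, Pygm and Cox8b, against 16.3% of promoters. CACCTG on either strand, which is also a subset of the E-box letters, occurred in 2 of 8 genes against 20.2% of promoters. The MCAT letters CATTCC on either strand occurred in 3 of 8 genes against 14.7% of promoters. CTANNNNTAG occurred in 1 of 8 against 3.7%. A match describes letters in the window and is not evidence of binding. By the same RefSeq build, Ckm, Cox6a2, Cox7a1 and Cox8b lie on chromosome 7, Pgam2 and Eno3 on 11, Ckb on 12, Ckmt2 on 13, Ampd1 on 3 and Pygm on 19. The places of the probes within the transcripts were not used here.

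Signals are the deposited mean bead intensities in arbitrary units. Log2 fold changes and tests come from limma on background-corrected, quantile-normalized log2 levels, with p-values adjusted over all 16981 probes tested (Benjamini-Hochberg) and a call at an adjusted p under 0.05. Between 15031 and 16314 probes were detected per array at a detection p under 0.01. All 12 probes passed the filter of detection on both arrays of at least 1 group. The 4 Ckmt2 and Ampd1 probes were detected in no group but DMSO at 48 h, so they passed only through the group in which they were high. The number of arrays limits the precision of each value below. Of markers chosen for other cell types, those of macrophages and endothelium gave no gene above the filter, and those of adipocytes, osteoblasts and neurons gave 1 each. Of these, Pparg and Alpl were not called between embelin and DMSO at 48 h, and Map2 was lower with embelin by a log2 change of -1.18. Myotube markers were detected at 10 to 12 of 12 genes per array, also in growth medium. Of the 8 myoblast and cycling markers, 4 to 5 were detected per array. Among these 8, Myf5, Pax7 and Ccna2 were detected on no array.

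One array stood apart before any comparison. On the first principal component (70.1% of the variance), embelin replicate 2 in growth medium lay at -57.95, against -83.04 for embelin replicate 1 and -83.46 and -83.52 for the DMSO arrays of that stage. Its summed signal over the 12 myotube markers was 23199.1, with 9734.9 in embelin replicate 1 and 9019.1 and 10132 in the DMSO arrays. The members followed the same split, as the values below show. Because each probe has a single estimate of spread over all 6 groups, the distance between the 2 embelin arrays of growth medium enters the error of every comparison. Leaving out either of them gave the Ckm change at 48 h a standard error of 0.17, against 0.55 with both. Results that turn on these arrays are given both ways.

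**Figure D1:**
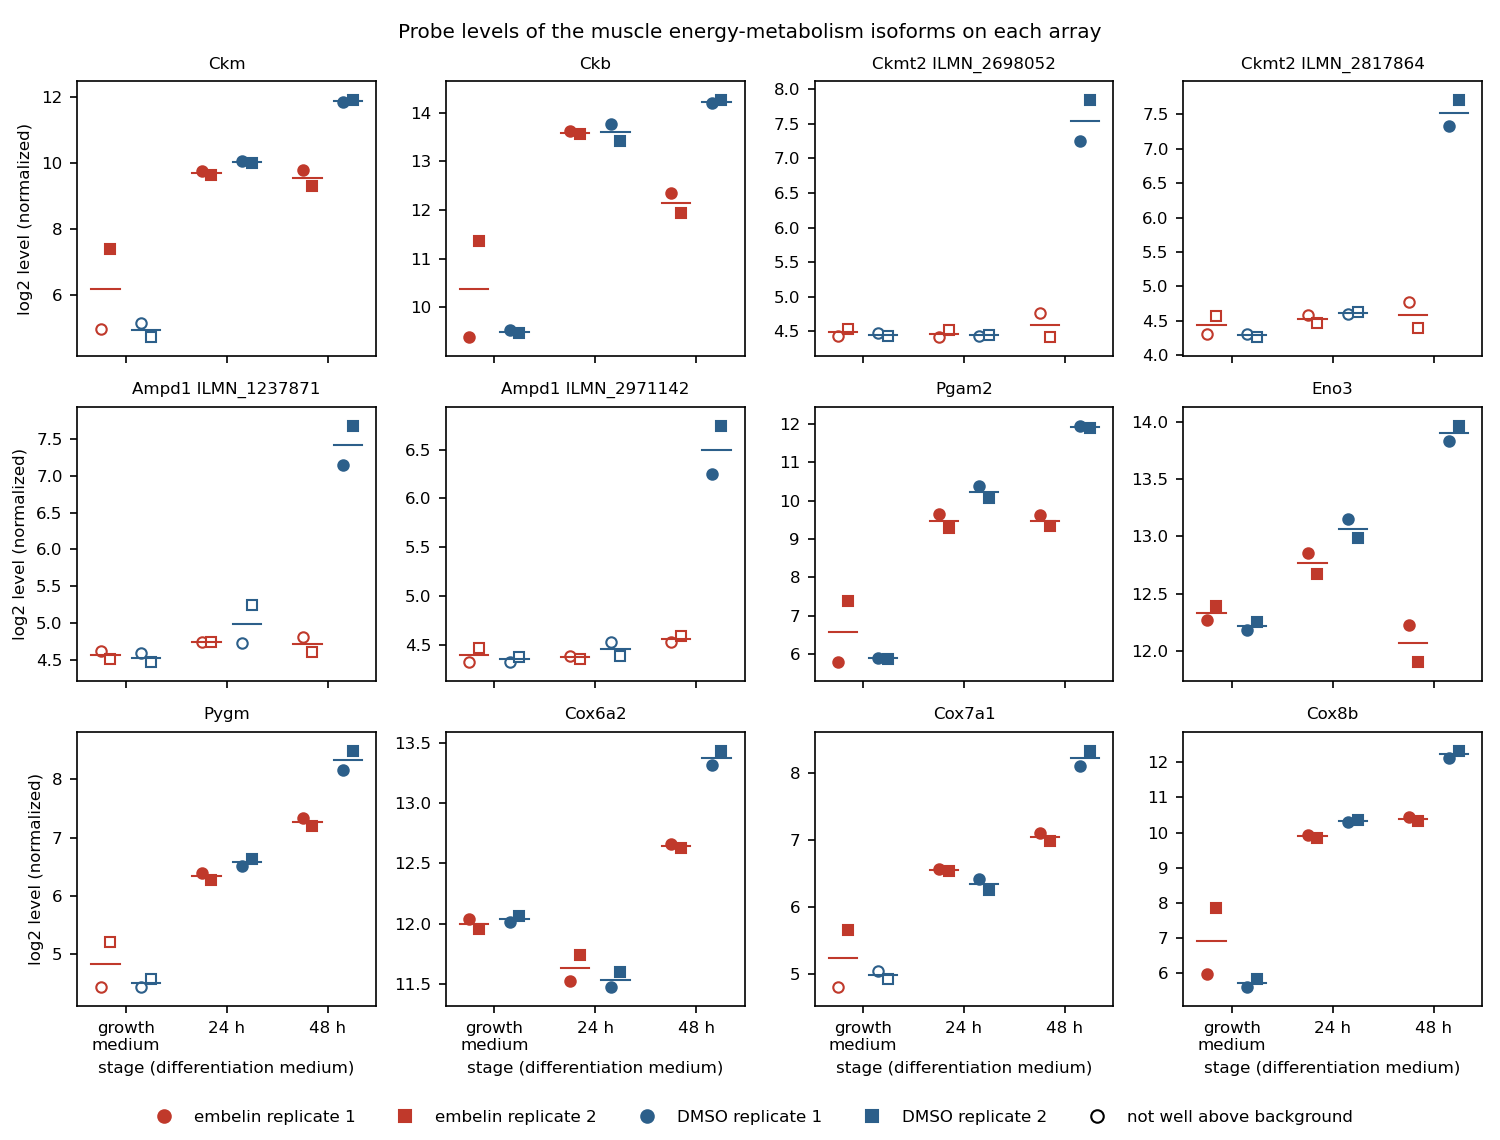
Normalized log2 level of each of the 12 probes on each of the 12 arrays. Each panel has its own vertical range, so heights are not comparable between panels. The horizontal axis gives the stage, with embelin (red) left of DMSO (blue), circles for replicate 1, squares for replicate 2, lines at group means and open symbols where the probe was not well above background. In every panel both DMSO arrays at 48 h lie above the other 10 arrays.

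In DMSO cells the muscle isoforms rose over 48 h of differentiation, Ckm, Pgam2, Eno3, Pygm, Cox7a1 and Cox8b on both days, and at 48 h 8 of the 8 probes measured in more than 1 group were higher than in growth medium (26.7% of all probes tested were called higher). For each of these 8, both DMSO arrays at 48 h lay above all 10 other arrays, an arrangement found for 11.8% of the 16981 probes. Their median log2 change between growth medium and 48 h was 4.28, or 3.82 with probes not above background in growth medium set to their bound, and the median of all probes was -0.09. With embelin, 8 of these 8 were lower at 48 h than with DMSO (18.3% of all probes tested were called lower). Their median log2 change was -1.84, against 0.00 for all probes. The other 4 probes, those of Ckmt2 and Ampd1, are left out of these counts and medians, because the filter kept them only for being high in DMSO cells at 48 h and they had to differ there. In whole-culture RNA, fewer myotubes and less of an RNA per myotube cannot be told apart. Of the 12 myotube markers, 5 were lower with embelin at 48 h and none was higher, and their summed signal was 94553.8 and 82307.5 in embelin cells, against 134873.1 and 143914.1 in DMSO cells. The myoblast and cycling markers also had a lower sum with embelin, 1150.9 and 1010.9, against 2157.2 and 2547.4 with DMSO, and 4 of the 5 tested were lower. The part of either marker list in the results was not tested.

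The muscle creatine kinase Ckm, which sits at the M line of the sarcomere, was not well above background on 3 of the 4 growth-medium arrays. Its signal there was 66.1 and 231.2 in embelin cells (replicates 1 and 2, in this order throughout) and 73.8 and 68.3 in DMSO cells. At 24 h it was 859.9 and 745.3 with embelin and 1013.7 and 881.2 with DMSO. At 48 h it was 940.5 and 642.4 with embelin, against 3402.9 and 3599.7 with DMSO. The embelin arrays at 48 h thus overlapped those at 24 h, and the DMSO arrays at 48 h stood clear of all others. In DMSO cells Ckm was at least 24.8-fold higher at 24 h and at least 89-fold higher at 48 h than in growth medium (limma adjusted p = 2.24e-05 and 1.57e-06). With embelin it was 5-fold lower than with DMSO at 48 h, a log2 change of -2.32 with a standard error of 0.55 (adjusted p = 0.00748). Leaving out embelin replicate 2 at 48 h, the lower of the pair, took the adjusted p to 0.0578.

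The probe of Ckb, the brain-type cytosolic creatine kinase, was bright at every stage. In growth medium it gave 857.4 and 3067.8 with embelin and 873.3 and 915.0 with DMSO, and at 24 h it gave 11528.1 and 11081.5 with embelin and 12908.4 and 10090.8 with DMSO. The 48 h signals were 4914.1 and 3746.3 with embelin, against 16661.6 and 17458.4 with DMSO. At 24 h the treatments overlapped, and at 48 h every embelin array lay below every array of 24 h. In DMSO cells Ckb was 17.1-fold higher at 24 h than in growth medium (log2 change 4.10, standard error 0.45, adjusted p = 2.47e-05), and the further change between 24 h and 48 h was 0.62 and not called (adjusted p = 0.324). Without either embelin array of growth medium, the same change of 0.62 had an adjusted p of 0.0107. At 48 h Ckb was 4.22-fold lower with embelin (log2 change -2.08, standard error 0.45, adjusted p = 0.00447).

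Ckmt2, the sarcomeric creatine kinase of the mitochondrial intermembrane space, appeared late. At 48 h the probe ILMN_2698052 gave 62.5 and 53.1 with embelin, against 167.0 and 241.3 with DMSO. The probe ILMN_2817864 gave 63.0 and 52.0 with embelin, against 174.9 and 222.6 with DMSO. Neither probe was well above background on any of the other 10 arrays, where their signals ran from 41.4 to 65.0. With embelin the levels at 48 h were at least 4.55-fold and at least 4.47-fold lower than with DMSO. These bounds describe the arrays and no test is read from them, since both probes passed the filter through DMSO at 48 h alone.

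Ampd1 encodes the muscle AMP deaminase, which turns AMP into IMP. Like Ckmt2 it was measured only in DMSO cells at 48 h. Its probe ILMN_1237871 gave 63.8 and 60.7 with embelin at 48 h, against 157.7 and 219.5 with DMSO, and its probe ILMN_2971142 gave 55.1 and 60.0 with embelin, against 103.5 and 135.1 with DMSO. These are at least 4.16-fold and at least 2.21-fold lower levels with embelin, given as a description for the same reason. On the other 10 arrays the signals of both probes stayed between 43.3 and 72.1.

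Pgam2, the muscle phosphoglycerate mutase of lower glycolysis, followed the course of Ckm. It gave 93.7 and 228.0 with embelin and 99.4 and 106.0 with DMSO in growth medium, and 802.7 and 599.2 with embelin and 1245.2 and 894.4 with DMSO at 24 h. At 48 h it gave 821.8 and 650.5 with embelin, against 3626.5 and 3532.2 with DMSO. Both embelin arrays were already below both DMSO arrays at 24 h, by 0.74 on the log2 scale, a difference that was not called (adjusted p = 0.544). At 48 h Pgam2 was 5.44-fold lower with embelin (log2 change -2.44, standard error 0.38, adjusted p = 0.000586). Its rise in DMSO cells over 48 h was 65.4-fold (adjusted p = 3.02e-07).

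Eno3, the muscle enolase that acts directly after phosphoglycerate mutase, was bright from the start. In growth medium it gave 5863.5 and 6143.5 with embelin and 5213.2 and 5978.6 with DMSO, and at 24 h it gave 6869.3 and 5945.0 with embelin and 8500.6 and 7234.4 with DMSO. The 48 h signals were 4600.5 and 3631.0 with embelin, against 13407.8 and 14897.7 with DMSO. In DMSO cells the level climbed at both steps, by 0.85 at 24 h and by a further 0.84 at 48 h on the log2 scale (adjusted p = 0.00029 and 0.00107). In embelin cells at 48 h the log2 change from growth medium was -0.27 and was not called (adjusted p = 0.104). Against DMSO at 48 h it was 3.58-fold lower, with a small standard error (log2 change -1.84, standard error 0.13, adjusted p = 4.88e-06).

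Pygm, the muscle glycogen phosphorylase, was not well above background on any growth-medium array. From 24 h it was measured in both treatments, at 122.7 and 114.4 with embelin and 123.6 and 122.8 with DMSO. At 48 h it gave 200.8 and 179.7 with embelin, against 287.1 and 356.8 with DMSO. In embelin cells too it rose on the second day, and both of their 48 h arrays lay above all arrays of 24 h. The embelin level at 48 h was 2.09-fold lower than with DMSO (log2 change -1.06, standard error 0.21, adjusted p = 0.00271).

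The 3 remaining members are tissue-specific subunits of cytochrome c oxidase, the last complex of the respiratory chain. Cox8b gave 102.4 and 303.3 with embelin and 87.9 and 104.0 with DMSO in growth medium, and 966.7 and 855.1 with embelin and 1187.9 and 1097.1 with DMSO at 24 h. At 48 h it gave 1444.7 and 1283.2 with embelin, against 4049.3 and 4733.9 with DMSO. The embelin arrays at 48 h were thus close to the DMSO arrays of 24 h and overlapped them on the normalized scale. The log2 change with embelin at 48 h was -1.83 with a standard error of 0.42 (adjusted p = 0.00652).

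Cox7a1 was low throughout. In growth medium it was above background only in embelin replicate 2, at 97.9, with 61.6 in embelin replicate 1 and 71.3 and 73.8 in DMSO cells. It gave 132.9 and 129.0 with embelin and 118.6 and 104.2 with DMSO at 24 h, and 176.8 and 161.3 with embelin, against 276.4 and 323.3 with DMSO, at 48 h. At 24 h the embelin arrays were the higher pair and at 48 h the lower pair, and only the second difference was called, at -1.18 with a standard error of 0.22 (adjusted p = 0.00183).

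Cox6a2 had a course of its own, with a dip at 24 h. Its signals were 4965.9 and 4504.5 with embelin and 4652.0 and 5292.3 with DMSO in growth medium, and 2794.0 and 3072.2 with embelin and 2605.4 and 2664.3 with DMSO at 24 h. At 48 h they were 6054.5 and 5800.1 with embelin, against 9153.9 and 10462.1 with DMSO. In DMSO cells the 24 h level was lower than in growth medium by a log2 change of -0.50 and the 48 h level higher by 1.34 (adjusted p = 0.00257 and 2.01e-06). With embelin the level at 48 h was 1.66-fold lower than with DMSO (log2 change -0.73, standard error 0.11, adjusted p = 0.000498), the smallest change among the 8 probes measured in more than 1 group.

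**Figure D2:**
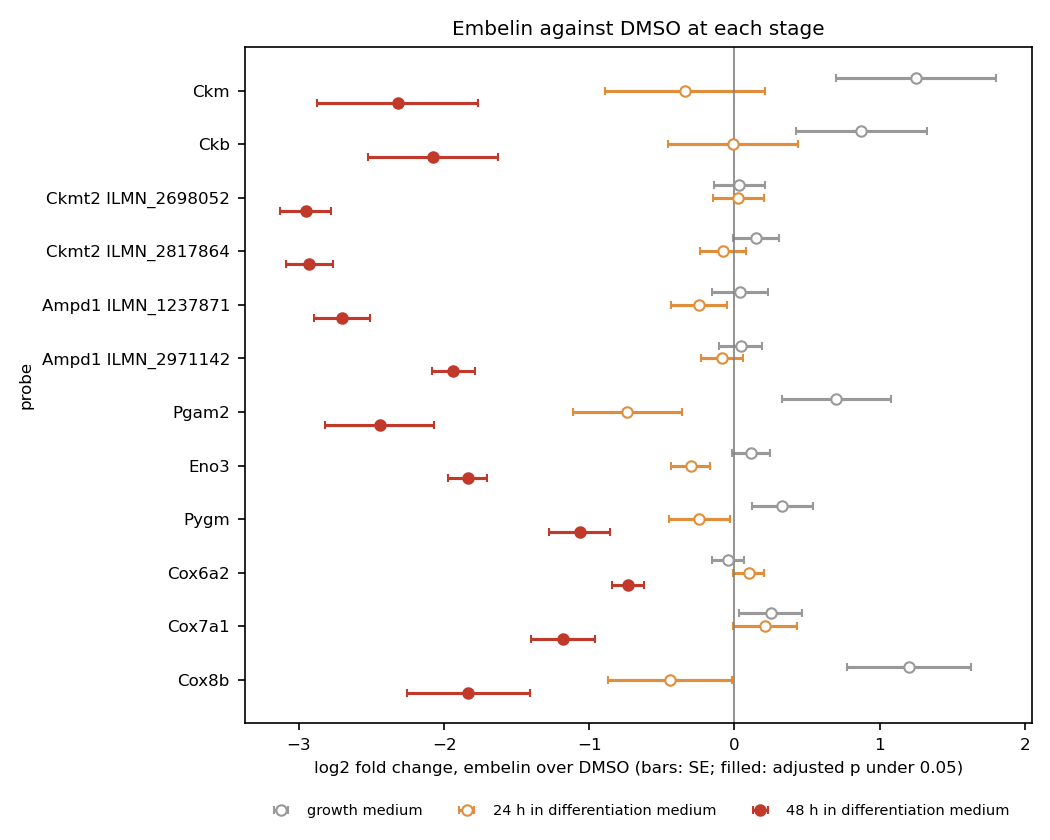
Log2 fold change of embelin over DMSO for each of the 12 probes in growth medium (grey), at 24 h (orange) and at 48 h (red), with bars of 1 standard error. Filled points have an adjusted p under 0.05. Of the points at 48 h, those of the 8 probes measured in more than 1 group lie between -2.44 and -0.73, and those of Ckmt2 and Ampd1 are fitted against embelin levels not above background. No point of the earlier stages is filled.

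The 24 h arrays carried little of this difference. Between embelin and DMSO at 24 h, limma called none of the 12 probes (0.0589% of all probes tested were called). An unadjusted p under 0.05 was found for 1 of the 12, Eno3, and for 1752 of all 16981 probes tested. The log2 changes of the members ran from -0.74 for Pgam2 to 0.21 for Cox7a1. In growth medium none of the 12 was called either, with 0% of all probes tested called. An unadjusted p under 0.05 in growth medium was found for 2 of the 12, Ckm and Cox8b, and for 968 of all 16981 probes tested. Without embelin replicate 1 there, the log2 change with embelin was 2.15 for Cox8b, 1.86 for Ckb and 1.49 for Pgam2. It was 0.17 for Eno3 and -0.09 for Cox6a2. Ckm and Cox7a1 were also higher, over DMSO levels there that were not above background. Without embelin replicate 2 the changes were 0.26 for Cox8b, -0.10 for Ckb and -0.09 for Pgam2. The growth-medium comparison of these genes therefore rests on which of the 2 embelin arrays is kept.

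The time course within each treatment shows where the courses part. On the first day of differentiation 7 probes rose and 1 fell in both treatments. In embelin cells these were Ckm, Ckb, Pgam2, Eno3, Pygm, Cox7a1 and Cox8b, with Cox6a2 lower (26.5% of all probes tested were called higher and 29.2% lower). In DMSO cells the same 7 rose and Cox6a2 fell (25.2% higher and 30.8% lower). In embelin cells the calls of Eno3 and Cox6a2 (adjusted p = 0.0166 and 0.0162) were lost without embelin replicate 1 in growth medium (adjusted p = 0.0848 and 0.0753) or at 24 h (0.12 and 0.139), and that of Cox6a2 also with only the groups compared in the fit (adjusted p = 0.0668). The Eno3 call was also lost with scaling to the array median (log2 change 0.13, adjusted p = 0.482), to the 75th percentile (0.25, adjusted p = 0.101) and in the deposited series matrix values (0.23, adjusted p = 0.118). The log2 rises on that day were 3.21 for Ckb, 2.89 for Pgam2 and 2.96 for Cox8b in embelin cells, and 4.10, 4.33 and 4.61 in DMSO cells. Without embelin replicate 2 in growth medium, the array that stood apart, these embelin rises were 4.19, 3.68 and 3.91. Ckm is left out here, since it was above background on 1 of the 2 embelin arrays and on neither DMSO array of growth medium. Tested directly, the embelin effect at 24 h minus that in growth medium was called by limma for none of the 12 probes (0% of all probes tested). An unadjusted p under 0.05 was found for 3 of the 12 and for 1205 of all 16981 probes tested. For the 3 genes whose rises are given above, this difference was -0.89 for Ckb, -1.44 for Pgam2 and -1.65 for Cox8b. Leaving out embelin replicate 1 in growth medium, it was -1.87, -2.23 and -2.59.

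On the second day the treatments separated. In DMSO cells 7 of the 8 probes measured in more than 1 group rose between 24 h and 48 h, Ckb being the exception (14.3% of all probes tested were called higher). In embelin cells 2 rose and 2 fell (12.6% of all probes tested were called higher and 13.1% lower). Those that rose were Cox6a2 by 1.01 and Pygm by 0.94 on the log2 scale (adjusted p = 9.16e-05 and 0.00839). Those that fell were Ckb, with a log2 change of -1.44, and Eno3, with -0.70 (adjusted p = 0.0372 and 0.00335). Pgam2 in embelin cells had a log2 change of 0.00 over that day, and Ckm one of -0.14, against 1.70 and 1.84 in DMSO cells. Cox7a1 and Cox8b in embelin cells had changes of 0.49 and 0.50 that limma did not call (adjusted p = 0.128 and 0.423). For each, both 48 h arrays lay above both 24 h arrays. Leaving out embelin replicate 1 of growth medium kept these sizes and made their standard errors smaller. The Ckb call in embelin cells was lost with no detection filter or with a trended, robust prior in limma (adjusted p = 0.13 and 0.12). So was the Ckm call in DMSO cells (adjusted p = 0.103 and 0.101). In embelin cells the Ckb call was lost on leaving out any single embelin array of 24 h or 48 h or DMSO array of growth medium (adjusted p = 0.0536 to 0.176). The Pygm call there was lost without embelin replicate 2 at 24 h or replicate 1 at 48 h (adjusted p = 0.0583 and 0.0556), which left 2 calls. In DMSO cells the Ckm rise on that day was lost on leaving out any single DMSO array of 24 h or 48 h (adjusted p = 0.0902 to 0.106), and that of Pgam2 without DMSO replicate 2 at 24 h (adjusted p = 0.0511).

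**Figure D3:**
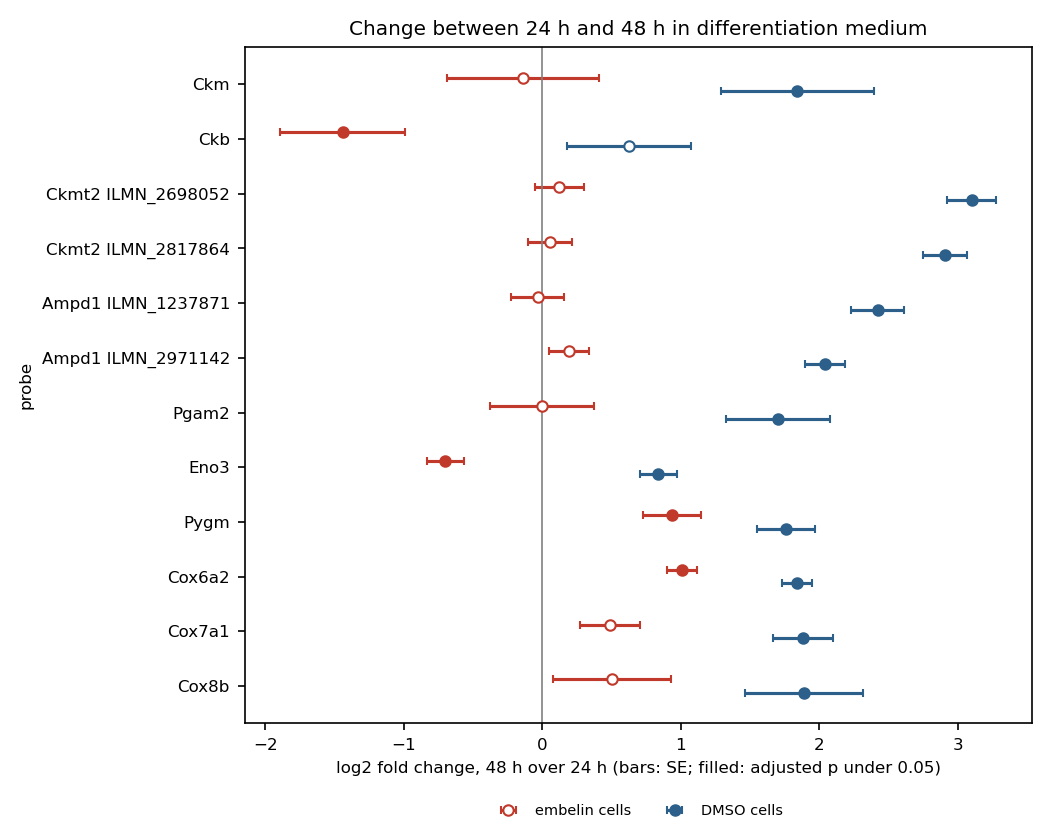
Log2 fold change of 48 h over 24 h in differentiation medium for each of the 12 probes, in embelin cells (red) and DMSO cells (blue), with bars of 1 standard error. Filled points have an adjusted p under 0.05. Each DMSO point lies to the right of its embelin point. For the 8 probes measured in more than 1 group the embelin points lie between -1.44 and 1.01 and the DMSO points between 0.62 and 1.89, and the points of Ckmt2 and Ampd1 are fitted against levels not above background.

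The difference between the embelin effects at 48 h and at 24 h was tested as an interaction. Among the 8 probes measured in more than 1 group it was called lower for 3, Eno3, Cox7a1 and Cox6a2 (6.63% of all probes tested were called lower). For Eno3 it was -1.54 (standard error 0.19, adjusted p = 0.000674), for Cox7a1 -1.39 (standard error 0.31, adjusted p = 0.015) and for Cox6a2 -0.83 (standard error 0.15, adjusted p = 0.00633). With no detection filter the limma adjusted p for Cox7a1 was 0.0513. The Cox7a1 call was lost without replicate 2 of embelin at 48 h, of DMSO at 48 h or of DMSO at 24 h (adjusted p = 0.06, 0.0629 and 0.0541). For Ckmt2 and Ampd1, 3 of the 4 groups in it were not well above background, so its size is not a measured one and those 4 probes are not counted. The other 5 missed the threshold, with -2.07 for Ckb (adjusted p = 0.0583), -1.98 for Ckm (0.127), -1.71 for Pgam2 (0.061), -1.39 for Cox8b (0.162) and -0.82 for Pygm (0.0989). Growth medium does not enter this difference but shares the estimate of spread. Their standard errors were 0.64 for Ckb, 0.78 for Ckm, 0.53 for Pgam2, 0.60 for Cox8b and 0.30 for Pygm. Leaving out embelin replicate 1 of growth medium kept the size of these differences. Their standard errors were then 0.21, 0.24, 0.22, 0.16 and 0.18, in the same order.

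Embelin cells at 48 h were nevertheless above growth medium for 7 of the same 8 probes, Ckm, Ckb, Pgam2, Pygm, Cox6a2, Cox7a1 and Cox8b (29.9% of all probes tested were called higher). The log2 changes were 1.77 for Ckb, 2.89 for Pgam2 and 3.47 for Cox8b, and Pygm was at least 3.55-fold higher. In DMSO cells the changes over the same 48 h were 4.72 for Ckb, 6.03 for Pgam2 and 6.50 for Cox8b, and Pygm was at least 7.59-fold and Ckm at least 89-fold higher. The embelin values again include the growth-medium array that stood apart: without it they were 2.75 for Ckb, 3.68 for Pgam2 and 4.41 for Cox8b.

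The order of the 6 group means differed among members below the shared top rank of DMSO at 48 h. For Ckm, Ckb, Pgam2 and Eno3 the next rank was DMSO at 24 h. For Pygm, Cox6a2 and Cox7a1 it was embelin at 48 h, and for Cox8b it was embelin at 48 h too, overlapping DMSO at 24 h. Among the 8 genes measured in more than 1 group, embelin at 48 h was the lowest group only for Eno3, where its arrays overlapped those of DMSO in growth medium. For Ckm, embelin at 24 h overlapped embelin at 48 h, and for Ckb, embelin at 24 h overlapped DMSO at 24 h. In growth medium the 2 treatments overlapped for Ckm, Ckb, Pgam2, Pygm, Cox6a2 and Cox7a1.

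The isoforms of the same steps used in other tissues, listed together with the related gene Cox7a2l, moved in both directions. Of 9 such counterparts tested, 4 were higher and 3 lower with embelin at 48 h (18.6% of all probes tested were called higher and 18.3% lower), with a median log2 change of 0.04. Those higher were Eno2, the neuronal enolase, by 1.96, Ampd3, the erythrocyte AMP deaminase, by 1.40, Pgam1 by 0.95 and Eno1 by 0.53 on the log2 scale (adjusted p = 1.07e-05, 0.000119, 0.00373 and 0.00297). Those lower were Cox7a2 with a log2 change of -0.60, Ampd2, the liver-type AMP deaminase, with -0.42 and Cox7a2l with -0.41 (adjusted p = 0.00321, 0.0218 and 0.016). The 3 lower became 1 without DMSO replicate 2 at 48 h or without either embelin array of 48 h. Thus within the enolase and mutase steps the muscle gene was lower and its counterparts tested were higher, and within AMP deaminase the counterparts moved in both directions. The brain-type glycogen phosphorylase Pygb had a log2 change of 0.02 (adjusted p = 0.943). Ckb, the brain-type counterpart of Ckm, is itself a member and is not among the 9. Like Ckm it was lower with embelin at 48 h, by a log2 change of -2.08, and rose by 4.72 in DMSO cells over 48 h. Under array-median scaling 4 counterparts were higher and 1 lower. In DMSO cells over 48 h, 1 of the 9 rose, Eno2 by 0.97 (26.7% of all probes tested were called higher and 33.8% lower). Of the 9, 2 fell, Ampd3 with a log2 change of -2.47 and Ampd2 with -0.88.

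**Figure D4:**
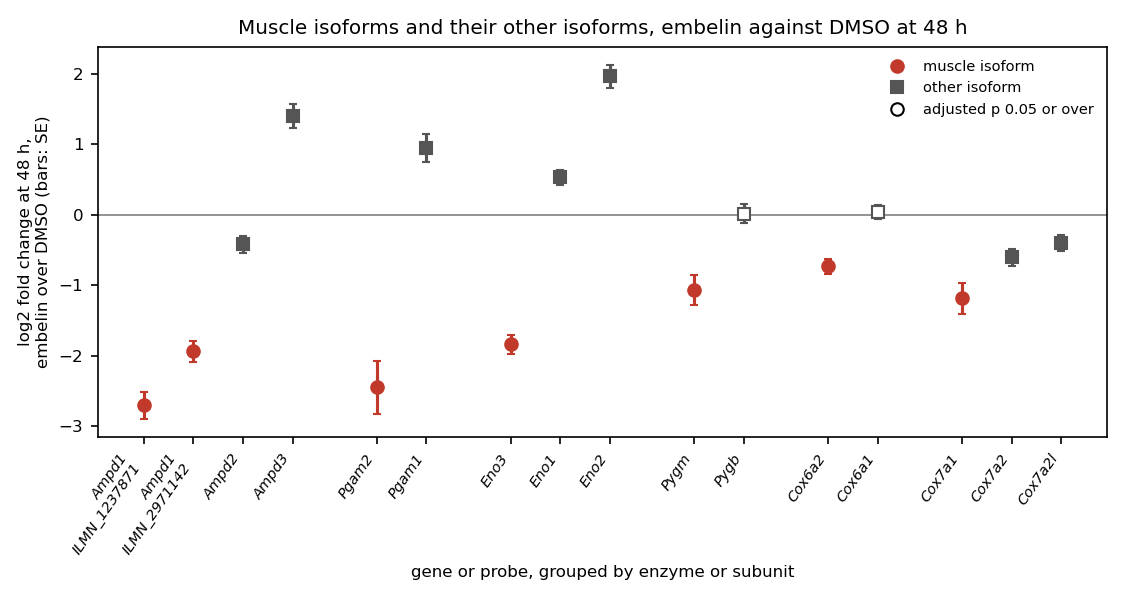
Log2 fold change of embelin over DMSO at 48 h for muscle isoforms (red circles) and their counterparts (grey squares), with bars of 1 standard error. Counterparts are isoforms of the same enzyme or subunit in other tissues, and Cox7a2l, a related gene rather than such an isoform. Open symbols have an adjusted p of 0.05 or over. Ckmt2 and Cox8b, which had no tested counterpart, are not drawn. Ckm and its brain-type counterpart Ckb, itself a member, are not drawn either. The muscle isoforms drawn lie between -2.70 and -0.73, the lowest being Ampd1, fitted against an embelin level not above background, and the others between -0.60 and 1.96.

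The wider pathways moved in a mixed way at 48 h, set against 18.6% of all probes called higher and 18.3% lower. Among 12 genes of creatine and adenine nucleotide handling, 2 were higher and 6 lower with embelin (median log2 change -0.32). Gamt, which makes creatine, was lower by a log2 change of -1.96, Adssl1, the muscle adenylosuccinate synthase, by -1.20 and the mitochondrial adenylate kinase Ak3 by -1.16, whereas Ampd3 was higher, as above. In DMSO cells over 48 h 4 of these rose and 4 fell (26.7% of all probes tested were called higher and 33.8% lower). Gamt rose by 3.92 and Adssl1 by 3.36.

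Of 22 genes of glycogen metabolism and glycolysis, 13 were higher and 6 lower with embelin at 48 h (median 0.56). Gbe1, the glycogen branching enzyme, was higher by 2.43 and the platelet-type phosphofructokinase Pfkp by 1.16. The muscle phosphofructokinase Pfkm was lower by a log2 change of -1.20, as was the glycogen primer Gyg by -1.46. In DMSO cells over 48 h 17 of the 22 rose and 2 fell (26.7% of all probes tested were called higher and 33.8% lower). Their median was 1.20, and Pfkm rose by 3.52. Of 9 other cytochrome c oxidase subunits tested, Cox7a2l counted with them, 7 were lower with embelin at 48 h and none higher (median -0.40). Among the 7 were Cox7b by a log2 change of -0.82, Cox7a2 by -0.60 and Cox5b by -0.47. The 7 became 3 without replicate 2 of either treatment at 48 h, 4 without embelin replicate 1 and 5 without DMSO replicate 1, each time with none higher. In DMSO cells 1 of the 9 rose over 48 h, Cox5b by 0.25, beside 26.7% of all probes tested called higher. This list gave no gene higher and 1 lower under scaling to the 75th percentile. Beside these, the muscle subunits Cox8b, Cox7a1 and Cox6a2 had log2 changes of -1.83, -1.18 and -0.73 with embelin at 48 h, and the 9 others ran from -0.82 to 0.04.

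The genes nearest to 4 members over the 12 arrays were found by the root mean square difference of log2 level, after each probe's own mean was removed, among 9676 genes. Nearest to Ckm were Asb2 at 0.26, Hrc at 0.34 and Unc45b at 0.41. Nearest to Cox8b were Hrc at 0.17, Dhrs7c at 0.29 and Unc45b at 0.30, so 2 genes were shared by these members. Ckb had other neighbours, Itga11 at 0.31, C430049B03Rik at 0.31 and Oasl2 at 0.33, and Eno3 had Cxcl13 at 0.19 and Mfap3l at 0.20. With embelin at 48 h the neighbours of Ckm were lower by log2 changes of -2.87 for Asb2, -1.63 for Hrc and -1.50 for Unc45b. They were chosen for likeness to Ckm on these same arrays, so their direction follows from the choice. This measure describes levels on these arrays, which share the 6 groups.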

How the data were processed

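Per the file headers, each deposited intensity is a probe's mean bead signal, written by GenomeStudio with no normalization. The version is 1.8.0 per the file headers and 2010.2 per the submitters' processing notes. The deposited detection score is 1 minus the detection p, and the table also deposited the standard deviation and number of beads (21 to 60 per member probe). Log2 values in the deposited series matrix were each equal within 0.006 to the log2 signal minus the array's 75th percentile and the probe's median, and were used as an alternative. The labels name an Agilent labelling kit, but the file headers are those of Illumina arrays.

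Signals were processed with neqc of limma 3.58.1 in R 4.3.3 (offset 16, controls inferred from detection p). A probe was kept (16981 were) if its detection p was under 0.01 for each array in any 1 group, and 6 group means were fitted on 12 arrays (6 residual and 4.66 prior degrees of freedom). A gene in a list stands by its brightest tested probe. Where a probe was not well above background on both arrays of a group, "at least" gives the brighter group's mean over the mean, per array, of the higher of the lowest detected level and the probe's own. Members and lists (creatine and adenine nucleotide genes, other isoforms, glycogen and glycolysis, other oxidase subunits, and markers of myotubes, myoblasts and 5 other cell types) were chosen with earlier results of these data known. Every member probe is named, with up to 4 genes per list and comparison, the largest called changes, and the 3 nearest genes of 4 members, of which 1 is not reported here; Pygb, Ampd2 and Cox7a2l were chosen after their values were seen. Symbols were updated through RefSeq (27760 probes current, 7994 synonyms, 9527 as in the file). The pipeline was tested on simulated data. Figures used Python 3.11.15 and matplotlib 3.10.9.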

Additional observations from a re-analysis of the deposited data

Results flagged for a closer look

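For Eno3, Cox7a1 and Cox6a2 the embelin effect at 48 h differed from that at 24 h by a test of the difference itself, the interaction term of the limma fit. The difference on the log2 scale was -1.54 for Eno3, -1.39 for Cox7a1 and -0.83 for Cox6a2 (adjusted p = 0.000674, 0.015 and 0.00633). Ckb, Ckm, Pgam2, Cox8b and Pygm had differences in the same direction, from -2.07 for Ckb to -0.82 for Pygm, that were not called. The same term also passed the threshold for the 4 probes of Ckmt2 and Ampd1, which the detection filter kept only through DMSO at 48 h. The other 3 groups in it were not above background, so their values are fitted sizes that depend on the background level and support nothing: -2.98 and -2.85 for Ckmt2 probes ILMN_2698052 and ILMN_2817864, and -2.46 and -1.85 for Ampd1 probes ILMN_1237871 and ILMN_2971142. With 2 arrays in each group, no search for single outlying arrays was made within groups.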

How the results depend on the processing

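Counts here include the 4 Ckmt2 and Ampd1 probes. Their calls involving DMSO at 48 h follow from the detection filter, so their staying called supports nothing. Without them, the values reported hold 8 calls for embelin at 48 h and 8 for DMSO at 48 h against growth medium. They hold 7 for DMSO at 48 h against 24 h and 3 for the difference of embelin effects between 48 h and 24 h. None of the 69 called probe results reversed under any alternative run. Under other settings 637 values kept their call and 9 lost it, in 5 distinct results. With single arrays left out, 807 kept it and 21 lost it, in 8 distinct results. Requiring detection on all arrays left 5 member probes. Of these, 5 were called for embelin at 48 h, 5 for DMSO at 24 h and 5 at 48 h against growth medium. For DMSO at 48 h against 24 h 4 were called, and for embelin at 24 h and 48 h against growth medium 5 and 4. For the difference of embelin effects between 48 h and 24 h 3 were called. That difference was called for 12 probes, in place of 7, without background correction and also with only the groups compared. The causes of these shifts in counts were not tested. Leaving out 1 array at a time gave 11 to 12 called probes for embelin at 48 h, 0 to 0 at 24 h and 0 to 5 in growth medium. The same gave 8 to 9 for DMSO at 24 h, 12 to 12 at 48 h and 9 to 12 for 48 h against 24 h, then 6 to 8, 7 to 8 and 2 to 6 for the 3 matching embelin steps. For the differences of embelin effects it gave 0 to 4 (24 h) and 6 to 12 (48 h); the 5 and the 4 came without embelin replicate 1 of growth medium, and the 12 without either embelin array of growth medium. The share of all probes called in each run with an array left out is not given here, so these counts are not set against it. Over all probes tested, the difference of replicate 1 minus replicate 2 in 1 group was correlated with that in another group. Over 15 pairs of groups this correlation of differences ran from -0.02 to 0.24. It was over 0.1 in 7 of them and 0.14 to 0.24 in all 6 pairs of differentiation groups. Since not every pair was over 0.1, the numbers were not taken as pairs. The replicate block gave 12 called probes at 48 h and changed no count of called members. Array-median scaling moved the median of all probes to -0.32 for DMSO at 48 h against growth medium, with -0.09 in the values reported. Signals near background, in Ckmt2, Ampd1 and growth-medium Ckm, Pygm and Cox7a1, give bounds only.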
